A study of Mus musculus with 12 samples.

Results

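Chemokines and the inflammatory cytokines of the colon were followed as 53 of the 24391 gene symbols measured in each library. They were taken by name: every symbol that starts with Ccl, Cxcl or Cx3cl followed by a number, plus Tnf, Il1a, Il1b, Il6, Il10, Il11, Il17a, Il22, Ifng, Csf1, Csf2, Csf3, Lta, Ltb and Ptgs2. The rule uses names alone and no measured value. Colon epithelial cells of C57BL/6 mice, 18 weeks old, were sequenced in 12 libraries, 4 in each of 3 groups. The control group, the AOMDSS group and the AOMDSSCurcumin group, called curcumin here, share strain, age and tissue. AOMDSS mice received azoxymethane (AOM), a chemical carcinogen, and dextran sulfate sodium (DSS), a polymer that inflames the colon, a combination used to produce colitis-driven colon tumours. Curcumin mice received AOM and DSS together with curcumin, a polyphenol of turmeric. Doses, routes and days of treatment are not given in the sources used here. The cells were scraped from colons whose proximal segment and right-sided tumours had been cut away, then spun slowly and washed to lower the content of blood cells, so few white cells are meant to remain.

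Chemokines are small secreted proteins that draw white blood cells along a gradient by binding receptors on them. The CC and CXC families are named for the spacing of their first cysteines. CXC members such as Cxcl1 and Cxcl2 attract neutrophils through Cxcr2, and many CC members attract monocytes, eosinophils or lymphocytes. In the intestine the epithelium itself makes several of them (Cx3cl1, Ccl20, Ccl25), whereas Tnf and Il1b come mainly from activated white cells. In an inflamed gut these genes are known to be switched on by the transcription factor NF-kB, and Ptgs2 (cyclooxygenase 2) makes prostaglandins.

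Levels are FPKM, read counts scaled to gene length and library depth, and libraries are named by group and replicate number, 0 to 3. Between 5567988 and 15968416 reads per library were assigned to genes, and 1 read of a short gene is about 0.1 FPKM. The epithelial markers were high in every library (Epcam 626 to 928 FPKM). White cell markers were low and uneven: the sum of 9 neutrophil markers ran from 0.823 to 3.83 FPKM in control, 1.44 to 13.2 in AOMDSS and 1.38 to 1.70 in curcumin, with Elane at 0 in all libraries. AOMDSS replicate 3 had the highest sum of 7 fibroblast markers, 24.1 FPKM against 1.93 to 14.4 in the others. Col1a1, Col1a2, Col3a1, Dcn and Pdgfra were each highest there, Dcn only just (6.65 FPKM, against 6.50 in control replicate 2). Lum was highest in control replicate 0 (0.749 FPKM). Pdgfrb was 1.60 in AOMDSS replicate 3, close to its lowest value of 1.59. By the correlation of their deviations with gene GC content, control replicate 0 and replicates 0 and 1 of both other groups were GC-rich and the other 7 libraries AT-rich. In bulk RNA, fewer cells of a type and less RNA per cell cannot be told apart.

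Most of these genes were close to the floor of the measurement. Of the 53, 12 passed the filter for testing (at least 1 FPKM in at least 4 libraries), and 6 of those were at 1 FPKM or more in every library: Ccl6, Cx3cl1, Ccl20, Cxcl16, Ccl5 and Ccl25. A further 11 reached 1 FPKM in at least 1 library without passing: Tnf, Lta, Il1b, Cxcl1, Cxcl2, Cxcl14, Ccl8, Ccl11, Ccl17, Ccl21a and Ccl22. The remaining 30 were below 1 FPKM in every library, and 6 of these, Il6, Il17a, Il22, Csf3, Ccl26 and Ccl28, were listed at 0 throughout. The annotation used for counting is not given in the sources used here. A gene listed at 0, Ccl28 included, may therefore be below detection or missed by the counting, which cannot be told apart. The mean was below 1 FPKM in all 3 groups for 37 of the 53. By role, the filter passed 6 of 24 CC chemokines, the 1 CX3C chemokine, 1 of 5 CXC chemokines of neutrophils, 1 of 3 interferon-induced CXC chemokines, 2 of 5 other CXC chemokines and 1 of 3 TNF family cytokines. It passed 0 of 8 interleukins and interferons, 0 of 3 colony-stimulating factors and not Ptgs2.

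**Figure D1:**
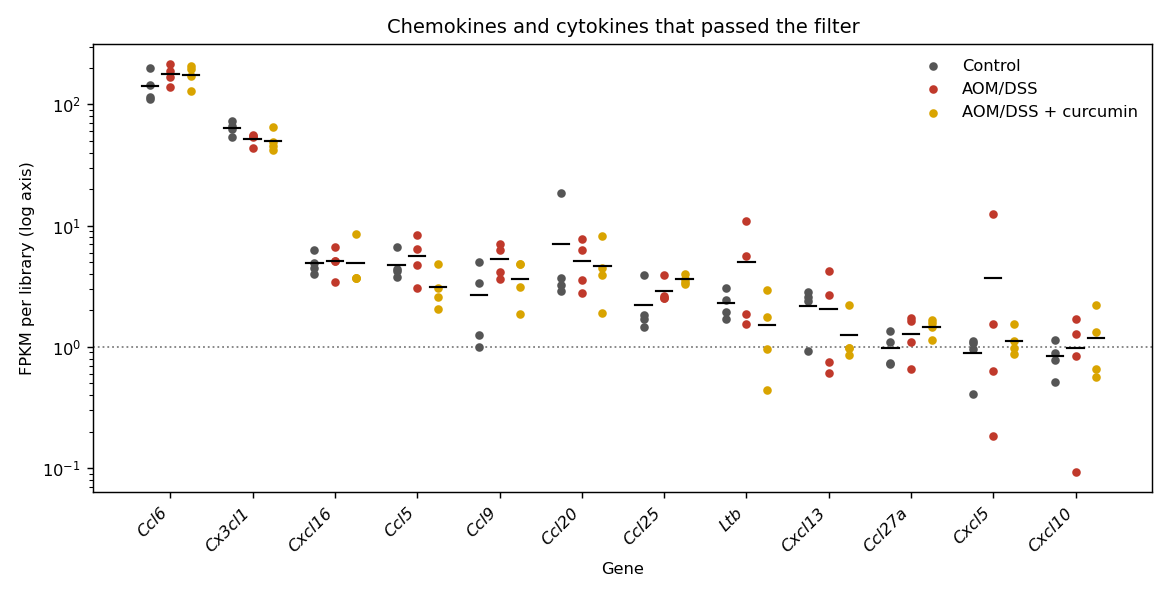
FPKM on a log axis for the 12 genes that passed the filter, 1 point per library and a bar at the mean of each group of 4, with a dotted line at 1 FPKM. Ccl6 and Cx3cl1 lie far above the rest, and the 3 groups overlap for every gene shown.

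Ccl6 and Cx3cl1 made up most of the chemokine message. The 53 genes summed to between 213 and 305 FPKM per library, and this pair gave 75.9% to 91.6% of it. Ccl6, a ligand of Ccr1 that attracts macrophages, read 146.0, 111.5, 199.1 and 115.2 FPKM in control replicates 0 to 3, 214.1, 187.3, 140.1 and 168.8 in AOMDSS, and 129.3, 172.1, 197.0 and 206.9 in curcumin. Each group spanned most of the range of the others (log2 fold change 0.33, SE 0.21, limma adjusted p = 0.529 for AOMDSS against control, and -0.02, adjusted p = 0.986, for curcumin against AOMDSS). Cx3cl1, or fractalkine, sits on the epithelial surface and binds Cx3cr1 on macrophages. Its level was 62.6, 66.3, 53.4 and 73.0 FPKM in control, 53.6, 54.7, 55.8 and 43.7 in AOMDSS, and 65.1, 48.6, 45 and 41.8 in curcumin. In control, 3 of 4 libraries were above all 4 AOMDSS libraries, but control replicate 2 was not, and the differences of -0.29 (SE 0.15, limma adjusted p = 0.433) for AOMDSS against control and -0.35 (SE 0.15, adjusted p = 0.363) for curcumin against control did not pass the threshold of 0.05.

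None of the 12 tested genes passed in AOMDSS against control, where 1.27% of the 12052 genes tested did. At an unadjusted p below 0.05 limma named 1 of the 12, Ccl9, against 13.5% of all genes. The fold change was above 0 for 9 of the 12 and for 52.8% of all genes, with medians of 0.18 and 0.02. In curcumin against AOMDSS again 0 of 12 passed, beside 1.08% of all genes. Ccl5 and Ltb were the 2 with an unadjusted p below 0.05 there, against 14.5% of all genes, both lower with curcumin. Only 3 of the 12 had a fold change above 0, against 49.1% of all genes, with medians of -0.12 and -0.01. These contrasts share the AOMDSS libraries, so a high AOMDSS value moves both. In curcumin against control 0 of 12 passed, beside 0.141% of all genes, and Ccl25 (higher) and Cx3cl1 (lower) had an unadjusted p below 0.05, against 12.2% of all genes. There the fold change was above 0 for 6 of the 12, beside 52.5% of all genes. No tested gene had non-overlapping groups in any of the 3 comparisons, a pattern found in 6.02%, 9.22% and 8.26% of all tested genes in the same order. The lowest adjusted p of any of the 12 over all comparisons and all settings tried was 0.0562.

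**Figure D2:**
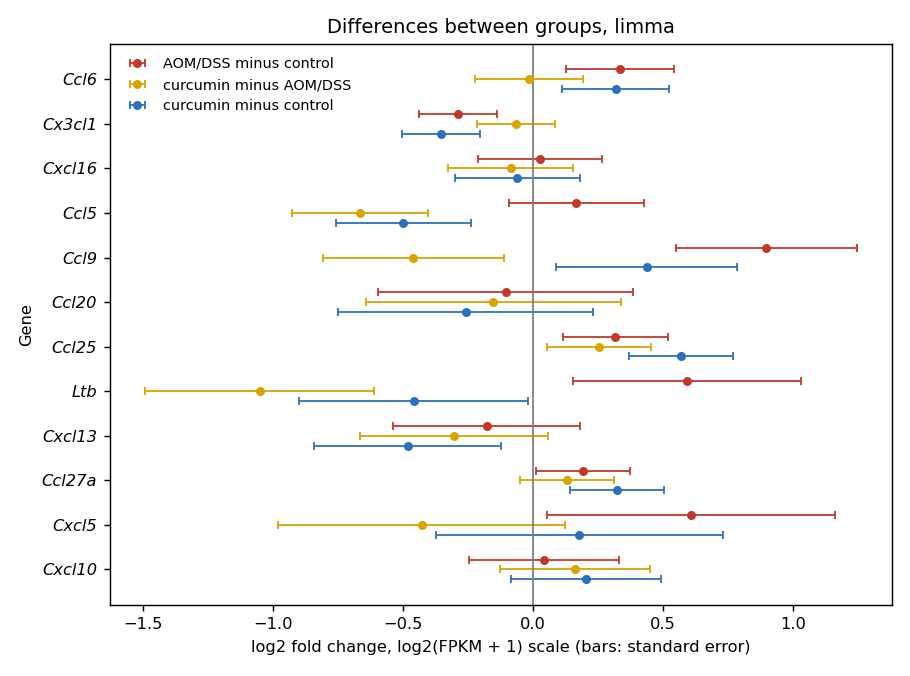
Log2 fold changes of the 12 tested genes on the log2(FPKM + 1) scale for the 3 comparisons, with bars of 1 standard error from limma. The points for Ltb and Ccl5 lie to the left for curcumin minus AOMDSS (-1.05 and -0.67) and the point for Ccl9 to the right for AOMDSS minus control (0.90), none past an adjusted p of 0.05.

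Among the CC chemokines that passed the filter, Ccl9 had the lowest adjusted p in AOMDSS against control. It is a myeloid-attracting ligand of Ccr1 like Ccl6. Control replicates read 1.26, 3.34, 5.05 and 0.990 FPKM, AOMDSS 3.66, 7.09, 4.14 and 6.34, and curcumin 3.09, 1.87, 4.82 and 4.81. All AOMDSS libraries exceeded 3 of the 4 control libraries, and control replicate 2 fell inside the AOMDSS range (log2 fold change 0.90, SE 0.35, limma adjusted p = 0.270). Without control replicate 2 the fold change was 1.19 (adjusted p = 0.0950). Within the GC-rich libraries, where control replicate 0 is the only control, it was 1.44, and within the AT-rich libraries it was 0.72. The macrophage and dendritic cell marker sum was 56.2 to 98.6 FPKM in AOMDSS and 37.6 to 97.7 in control, highest of the controls in that same replicate 2. Of its 12 markers, Cd14 and Lyz2 made up most of that sum in every library. The part of these cells in the Ccl9 level was not tested.

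Ccl25, the ligand that guides Ccr9-bearing lymphocytes to the gut, read 1.45, 1.70, 3.94 and 1.83 FPKM in control, 2.64, 2.53, 2.53 and 3.89 in AOMDSS, and 4.02, 3.45, 3.65 and 3.31 in curcumin. The curcumin libraries lay close together, above 3 of 4 controls and below control replicate 2 in 3 of 4 cases (curcumin against control 0.57, SE 0.20, limma adjusted p = 0.278). Leaving out control replicate 2 gave 0.79 with adjusted p = 0.0562. The lymphocyte attractant Ccl5 (RANTES) was at 4.21, 6.67, 3.78 and 4.39 FPKM in control, 3.07, 4.77, 8.37 and 6.43 in AOMDSS, and 4.83, 3.08, 2.57 and 2.04 in curcumin. Curcumin replicates 1 to 3 were below all controls, while AOMDSS replicate 0 was as low as they were (curcumin against AOMDSS -0.67, SE 0.26, limma adjusted p = 0.257). Between AT-rich libraries the value was -1.34 (adjusted p = 0.212), and between GC-rich libraries it was 0.0092 (adjusted p = 0.992). The summed T and NK cell markers were 7.87 to 12.9 FPKM in control, 7.34 to 26.2 in AOMDSS and 5.53 to 9.77 in curcumin, highest in AOMDSS replicate 2 as Ccl5 was. Whether those cells set the Ccl5 level was not tested.

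Ccl20, which the epithelium over lymphoid follicles makes to attract Ccr6-bearing cells, was at 2.91, 3.68, 18.5 and 3.21 FPKM in control, 2.80, 6.32, 7.83 and 3.59 in AOMDSS, and 8.26, 1.91, 3.94 and 4.51 in curcumin. The highest of the 12 values was control replicate 2, and the other 3 controls lay inside the AOMDSS and curcumin ranges (AOMDSS against control -0.10, SE 0.49, limma adjusted p = 0.948, and 0.44 without control replicate 2, adjusted p = 0.599). Ccl27a, a ligand of Ccr10, read 0.728, 1.34, 0.733 and 1.10 FPKM in control, 1.74, 1.65, 0.653 and 1.09 in AOMDSS, and 1.46, 1.67, 1.1 and 1.56 in curcumin. The groups overlapped, with means of 0.975 ± 0.299, 1.28 ± 0.507 and 1.46 ± 0.229 (SD, n = 4) in control, AOMDSS and curcumin (limma adjusted p of 0.697, 0.811 and 0.503 for AOMDSS against control, curcumin against AOMDSS and curcumin against control). Reads of Ccl27a and its near-copy Ccl27b may be divided between them by the counting, so both are uncertain. The same holds for the Ccl21 copies, since Ccl21b and Ccl21c had the same recovered read number in all 12 libraries.

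Other CC chemokines lay near the floor. Ccl8, a monocyte attractant, read 0.761, 0.385, 0.281 and 0 FPKM in control, 1.2, 0.677, 0.682 and 4.32 in AOMDSS, and 0.209, 0, 0.243 and 0.236 in curcumin. All 4 AOMDSS libraries were above all 4 curcumin libraries, the only gene among 32 with at least 24 reads to show that, where 4.51% of 15219 such genes did. The reads behind it were few: 6, 3, 4 and 33 in AOMDSS and 1, 0, 2 and 2 in curcumin. Limma voom on the recovered reads gave a log2 fold change of -2.63 (SE 0.83, adjusted p = 0.152), and 2.22 (SE 0.81, adjusted p = 0.246) for AOMDSS against control. In the same fit Ccl9 gave 1.28 (adjusted p = 0.248) for AOMDSS against control. The reads of Ccl8 came mostly from 1 library, and the AOMDSS mean of 1.72 FPKM was 0.852 without replicate 3. 

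Ccl11 (eotaxin, which attracts eosinophils) read 0, 0.184, 0.535 and 0 FPKM in control, 0.190, 0.107, 0 and 1.69 in AOMDSS, and 0, 0, 0.0578 and 0 in curcumin, so 1 AOMDSS library stood alone. Ccl17, a ligand of Ccr4 on T cells, was 0.567, 1.15, 0.558 and 0.470 FPKM in control, 0, 0.448, 0.848 and 1.30 in AOMDSS, and 0.831, 0, 0.121 and 0.352 in curcumin. Ccl22, the other ligand of Ccr4, was 0.215, 0.217, 0.396 and 0.133 in control, 0.113, 0.573, 1.11 and 0.222 in AOMDSS, and 0.354, 0.170, 0.171 and 0.0998 in curcumin. These Ccr4 ligands peaked in different AOMDSS libraries, replicate 3 for Ccl17 and replicate 2 for Ccl22, and the groups overlapped for both. Ccl21a, which leads Ccr7-bearing cells into lymphatic vessels and lymph nodes, was 2.63, 0.113, 1.86 and 0.185 FPKM in control, 0.352, 0.199, 0.251 and 1.31 in AOMDSS, and 0.246, 0.472, 0.321 and 0.0694 in curcumin. Control replicates 0 and 2 and AOMDSS replicate 3 were also the 3 libraries with the highest fibroblast marker sums (12.9, 14.4 and 24.1 FPKM). The endothelial marker sum was 8.41 to 11.3 FPKM in control, 4.18 to 6.42 in AOMDSS and 5.67 to 6.69 in curcumin. Its lymphatic marker Lyve1 fell in AOMDSS against control (-0.85, limma adjusted p = 0.00855) and in curcumin against control (-1.09, adjusted p = 0.00598). Pecam1, the other tested marker of that list, was at -0.66 (adjusted p = 0.142) and 0.09 (adjusted p = 0.893). Lyve1 read 4.44, 4.91, 4.62 and 4.66 FPKM in control, without the spread that Ccl21a had there. The share of Ccl21a that those cells gave was not tested. The classical monocyte and macrophage attractants Ccl2, Ccl3, Ccl4, Ccl7 and Ccl12 did not exceed 0.587 FPKM in any library, nor did Ccl1, Ccl19, Ccl21b, Ccl21c, Ccl24 and Ccl27b.

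The CXC chemokines that attract neutrophils are encoded side by side on chromosome 5, several with known NF-kB sites close to their start. To show them, the 120 bases before the start of 6 genes are given below from RefSeq (GRCm38.p6), 5′ to 3′ on the gene's strand, with matches to the 10-base motifs GGGNNTTTCC or GGGNNTTCCC on either strand in capitals. The files were made on build mm9, so these coordinates belong to GRCm38.p6 alone. The 6 genes were chosen because they hold a match, and Ccl20, Cxcl10 and Ltb among them are not neutrophil chemokines.
Cxcl1 (chr5:90891125-90891244, plus strand): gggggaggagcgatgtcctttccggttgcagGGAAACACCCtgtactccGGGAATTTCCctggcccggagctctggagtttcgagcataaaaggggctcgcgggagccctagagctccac
Cxcl2 (chr5:90903779-90903898, plus strand): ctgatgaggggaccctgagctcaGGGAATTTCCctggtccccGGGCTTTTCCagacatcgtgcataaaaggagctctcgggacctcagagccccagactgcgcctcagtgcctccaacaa
Cxcl3 (chr5:90785981-90786100, plus strand): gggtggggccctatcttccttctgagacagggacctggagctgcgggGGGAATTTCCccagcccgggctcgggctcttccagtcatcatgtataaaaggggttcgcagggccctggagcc
Ccl20 (chr1:83116646-83116765, plus strand): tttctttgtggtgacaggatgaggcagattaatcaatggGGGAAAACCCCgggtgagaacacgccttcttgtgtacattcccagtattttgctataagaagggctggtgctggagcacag
Cxcl10 (chr5:92348890-92349009, minus strand): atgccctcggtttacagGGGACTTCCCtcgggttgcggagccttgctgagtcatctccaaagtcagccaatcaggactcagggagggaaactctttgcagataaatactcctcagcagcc
Ltb (chr17:35194387-35194506, plus strand): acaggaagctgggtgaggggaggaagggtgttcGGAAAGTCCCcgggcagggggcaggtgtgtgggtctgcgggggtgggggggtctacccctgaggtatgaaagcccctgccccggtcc
In Ccl20 the capitals are 2 overlapping matches. RefSeq windows were found for 39 of the 53 genes, and 11 of them (28.2%) held a match within 250 bases before a start: Cxcl1, Cxcl2, Cxcl3, Cxcl9, Cxcl10, Ccl9, Ccl19, Ccl20, Csf1, Il6 and Ltb. The share was 3.25% among all 27025 genes with a window. No match was found for the neutrophil chemokine Cxcl15 or for Tnf, Il1b and Ptgs2, and Cxcl5 had no window. A match is only a run of letters, and Il6, with a match, was listed at 0 in all 12 libraries.

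Expression of these neutrophil chemokines was low. The highest library was AOMDSS replicate 1 for Cxcl2 and Cxcl3, and AOMDSS replicate 3 for Cxcl1, Cxcl5 and Cxcl15. Cxcl2, whose window holds 2 matches, read 0.0897, 0, 0 and 0.0743 FPKM in control, 0, 2.13, 0.241 and 0.927 in AOMDSS, and 0 in all 4 curcumin libraries. Those values are 0, 20, 3 and 15 reads in AOMDSS replicates 0 to 3 and 1, 0, 0 and 1 reads in control, and AOMDSS replicate 0 was as empty as the curcumin libraries. Voom on the reads gave -3.50 (SE 1.18, adjusted p = 0.180) for curcumin against AOMDSS and 2.39 (SE 1.13, adjusted p = 0.393) for AOMDSS against control, and with curcumin at 0 the fitted size depends on the model. Cxcl1 read 0.102, 0.415, 0.680 and 0.424 FPKM in control, 0, 0.364, 0.919 and 1.41 in AOMDSS, and 0.225, 0.108, 0.0653 and 0.127 in curcumin. The 4 AOMDSS libraries thus held both the lowest and the highest values of Cxcl1. Cxcl3 did not exceed 0.34 FPKM (AOMDSS replicate 1) and Cxcl15 did not exceed 0.22 (AOMDSS replicate 3).

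Cxcl5, another Cxcr2 ligand, was the only one of these to pass the filter. Its level was 0.411, 0.951, 1.08 and 1.12 FPKM in control, 0.185, 1.53, 0.632 and 12.4 in AOMDSS, and 1.55, 1.11, 0.974 and 0.873 in curcumin. One library, AOMDSS replicate 3 with 306 reads, made the AOMDSS mean (3.68 ± 5.82 FPKM, SD, n = 4), which was 0.782 without it. The log2 fold change of AOMDSS against control, 0.61 (SE 0.55, limma adjusted p = 0.685), was -0.14 without that library, and that of curcumin against AOMDSS turned from -0.43 to 0.32. Summed over the 5 neutrophil chemokines, the group means were 1.35 FPKM in control, 5.37 in AOMDSS and 1.34 in curcumin, and the AOMDSS mean was 2.11 without replicate 3. The 9 neutrophil markers summed to 1.44, 13.2, 4.66 and 11.3 FPKM in AOMDSS replicates 0 to 3, most of it from S100a8 and S100a9 in replicates 1 to 3. S100a8 was 0.520, 5.29, 1.33 and 5.64 FPKM in AOMDSS replicates 0 to 3 and at most 0.732 in any other library. S100a9 was 0.194, 5.94, 2.33 and 3.45 in AOMDSS and at most 1.5 elsewhere, with no call either (limma adjusted p = 0.210 against control and 0.108 for curcumin against AOMDSS). The other markers of the list did not share this pattern throughout: Cxcr2 was highest in curcumin replicate 2 (1.18 FPKM), Mpo was above 0 in control replicate 1 alone, and Camp in control replicate 2 and curcumin replicate 3 alone. The part of these cells in the chemokine values was not tested.

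**Figure D3:**
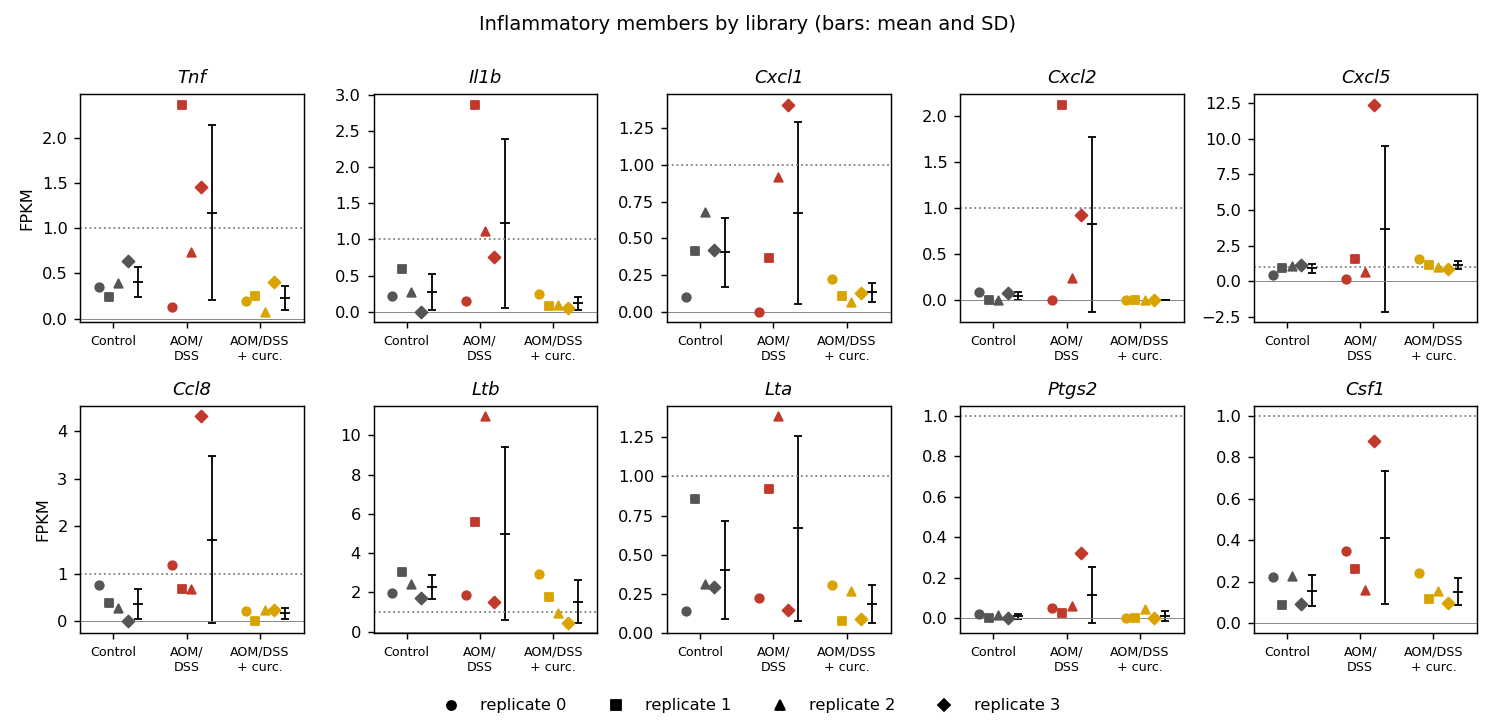
FPKM of 10 genes in every library, with 1 marker shape per replicate number, and the group mean with its SD beside the points (n = 4), with a dotted line at 1 FPKM. The high AOMDSS values come from replicate 1 for Tnf, Il1b and Cxcl2, replicate 2 for Ltb and Lta, and replicate 3 for Cxcl1, Cxcl5, Ccl8, Ptgs2 and Csf1.

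Of the CXC chemokines that interferon induces, Cxcl10, a ligand of Cxcr3, read 1.15, 0.895, 0.782 and 0.512 FPKM in control, 0.0926, 0.838, 1.27 and 1.70 in AOMDSS, and 2.23, 0.651, 0.564 and 1.31 in curcumin. AOMDSS spanned nearly the whole range (log2 fold change against control 0.04, SE 0.29, limma adjusted p = 0.966). Cxcl9 and Cxcl11, ligands of the same receptor, did not exceed 0.461 and 0.319 FPKM, and Ifng itself was above 0 in 2 curcumin libraries alone, at 0.0885 and 0.0499. Cxcl13, which organises B cell follicles through Cxcr5, was at 0.920, 2.37, 2.84 and 2.56 FPKM in control, 0.614, 2.68, 4.20 and 0.749 in AOMDSS, and 2.21, 0.969, 0.854 and 0.985 in curcumin. Only AOMDSS replicate 2 was above the highest control (AOMDSS against control -0.18, SE 0.36, limma adjusted p = 0.870, and curcumin against control -0.48, adjusted p = 0.620). That library also had the highest B and plasma cell marker sum (111 FPKM, against 3.71 to 57.7 in the others). Cxcl16, a membrane-bound ligand of Cxcr6, read 4.01, 4.91, 4.45 and 6.25 FPKM in control, 3.41, 5.08, 5.13 and 6.65 in AOMDSS, and 8.60, 3.68, 3.70 and 3.69 in curcumin. Curcumin replicate 0 was the highest of the 12 libraries, curcumin replicates 1 to 3 were below every control, and AOMDSS covered the control range (fold changes of 0.03, -0.09 and -0.06 in AOMDSS against control, curcumin against AOMDSS and curcumin against control, SE 0.24). About 18.3% of its exon bases in GENCODE M21 overlap Zmynd15 on the opposite strand, and the strand setting of the counting is not given in the sources used here.

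Cxcl12, the ligand of Cxcr4, and Cxcl14 are made mainly by stroma. Cxcl12 was 0.665, 0.137, 0.501 and 0.0449 FPKM in control, 0.398, 0.0805, 0.146 and 0.954 in AOMDSS, and 0.164, 0.0143, 0.0606 and 0.0168 in curcumin. Cxcl14 was 0.532, 0, 0.550 and 0.0441 FPKM in control, 0.0558, 0.316, 0.0478 and 3.49 in AOMDSS, and 0.0585, 0, 0.102 and 0.033 in curcumin. Both peaked in the library with the highest fibroblast and smooth muscle marker sums (24.1 and 21.3 FPKM). Not every marker did. Of the smooth muscle list, Tagln (13.4 FPKM) and Acta2 (6.48) peaked there, and Myh11 only just (0.697, against 0.689 in control replicate 0). Des was highest in control replicate 2 (1.10) and Cnn1 in control replicate 0 (0.831). Lum and Pdgfrb of the fibroblast list did not peak there either. What those cells contributed was not tested. Cxcl17 did not exceed 0.0944 FPKM.

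Among the cytokines, Ltb alone passed the filter. Tnf, the main inflammatory cytokine of activated macrophages and T cells, read 0.353, 0.238, 0.390 and 0.633 FPKM in control, 0.123, 2.37, 0.738 and 1.46 in AOMDSS, and 0.194, 0.248, 0.0750 and 0.401 in curcumin. AOMDSS replicates 1 to 3 (34, 14 and 36 reads) exceeded every other library, and AOMDSS replicate 0, with 2 reads, was among the lowest. Means were 0.404 ± 0.166 in control, 1.17 ± 0.967 in AOMDSS and 0.229 ± 0.135 in curcumin (SD, n = 4). Voom gave -1.90 (SE 0.81, adjusted p = 0.276) for curcumin against AOMDSS.

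Ltb, lymphotoxin beta, which lymphocytes carry on their surface and which signals to Ltbr on epithelium and stroma, was 1.95, 3.06, 2.42 and 1.69 FPKM in control, 1.86, 5.58, 11 and 1.53 in AOMDSS, and 2.93, 1.78, 0.963 and 0.440 in curcumin. AOMDSS replicates 1 and 2 were the only libraries above the control range, and AOMDSS replicate 3 and curcumin replicates 2 and 3 lay below it (curcumin against AOMDSS -1.05, SE 0.44, limma adjusted p = 0.286). The size followed the libraries used: -0.39 between GC-rich libraries, -1.71 between AT-rich ones, and -0.62 without AOMDSS replicate 2. That replicate held the highest B and plasma cell and T and NK cell marker sums (111 and 26.2 FPKM), and curcumin replicate 3, lowest for Ltb, had the lowest B and plasma cell sum (3.71). Their part in the Ltb level was not tested. Lta, its soluble partner, was 0.141, 0.854, 0.311 and 0.291 FPKM in control, 0.221, 0.917, 1.39 and 0.145 in AOMDSS, and 0.309, 0.0740, 0.269 and 0.0871 in curcumin, and so peaked in the same library as Ltb.

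Among the interleukins, Il1b was the one with AOMDSS values above 1 FPKM. Macrophages and neutrophils make it in inflammation. It read 0.22, 0.594, 0.270 and 0 FPKM in control, 0.154, 2.87, 1.12 and 0.757 in AOMDSS, and 0.242, 0.0771, 0.0935 and 0.0454 in curcumin. The reads were 2, 33, 17 and 15 in AOMDSS, 3, 4, 5 and 0 in control and 3, 1, 2 and 1 in curcumin. AOMDSS replicates 1 to 3 were above all other libraries, and AOMDSS replicate 0 was not. Voom gave 2.24 (SE 0.95, adjusted p = 0.328) for AOMDSS against control and -2.78 (SE 0.99, adjusted p = 0.196) for curcumin against AOMDSS. Il1a, released by damaged epithelium, was 0.0492, 0.299, 0.109 and 0.0815 FPKM in control, 0.206, 0.292, 0.221 and 0.204 in AOMDSS, and 0.325, 0.311, 0.283 and 0.153 in curcumin, with 1 to 9 reads per library.

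Il11, a cytokine of the Il6 family made mainly by stroma, read 0.387, 0.589, 0.322 and 0.361 FPKM in control, 0.254, 0.459, 0.261 and 0.467 in AOMDSS, and 0.532, 0.357, 0.525 and 0.390 in curcumin. It was the most even of the untested cytokines above 0 in every library, with means of 0.415 ± 0.119 in control, 0.360 ± 0.119 in AOMDSS and 0.451 ± 0.0906 in curcumin (SD, n = 4). The anti-inflammatory Il10 was above 0 only at 0.0882 FPKM in AOMDSS replicate 1 and 0.0818, 0.0475 and 0.0461 in curcumin replicates 0, 2 and 3, at least 1 read each. Il6, Il17a and Il22, the cytokines best known from colitis and from AOMDSS tumours, were listed at 0 in every library. At the depths above, 0 reads say that these messages were not detected in the scrapings, not that no cell made them. Csf1, the macrophage growth factor, was 0.22, 0.0891, 0.227 and 0.0910 FPKM in control, 0.346, 0.261, 0.158 and 0.878 in AOMDSS, and 0.242, 0.116, 0.154 and 0.0954 in curcumin, with AOMDSS replicate 3 far above the rest. Csf2 was above 0 in control replicate 1 alone, at 0.191 FPKM from at least 1 read.

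Ptgs2, known as the inducible prostaglandin synthase of colitis and colon tumours, stayed below 1 FPKM everywhere. It read 0.0234, 0, 0.0173 and 0 FPKM in control, 0.0492, 0.0278, 0.0631 and 0.323 in AOMDSS, and 0, 0, 0.0449 and 0 in curcumin. All 4 AOMDSS libraries were above all 4 controls, the only one of 32 genes with at least 24 reads to show that, where 2.63% of 15219 such genes did, and it rests on few reads. They were 2, 1, 3 and 20 in AOMDSS, 1, 0, 1 and 0 in control and 0, 0, 3 and 0 in curcumin, so AOMDSS replicate 1 and control replicates 0 and 2 held 1 read each and differ in FPKM by their depth alone. Voom gave 2.21 (SE 0.83, adjusted p = 0.265) for AOMDSS against control and -2.61 (SE 0.85, adjusted p = 0.160) for curcumin against AOMDSS.

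Over the 32 genes with at least 24 reads, voom called 0 in AOMDSS against control, where it called 1.12% of 15219 genes. It called 0 in curcumin against AOMDSS and 0 in curcumin against control, where it called 0.966% and 0.125% of all. At an unadjusted p below 0.05 it named 4 as higher in AOMDSS than control (Ptgs2, Ccl8, Ccl9 and Il1b), 6.26% of all genes being higher at that p. It named 9 as lower with curcumin than in AOMDSS (Ptgs2, Ccl8, Ccl5, Ltb, Tnf, Il1b, Csf1, Cxcl2 and Cxcl12), where 8.19% of all genes were. For curcumin against control it named 5, Il1a and Ccl25 as higher and Cx3cl1, Ccl21b and Ccl21c as lower, where 11% of all genes were named. Ccl21b and Ccl21c had the same recovered reads in all 12 libraries, so the same measurement enters the 5 and the 32 under both names. Changes in either direction reached that p for 13.1% of all genes in AOMDSS against control and 15.5% in curcumin against AOMDSS. None of the 32 had non-overlapping groups in curcumin against control, where 8.14% of all did. Fold changes were above 0 for 23, 5 and 10 of the 32 in the 3 comparisons in that order, and for 53.5%, 47.3% and 50.8% of all. The AOMDSS libraries enter the first pair of comparisons with opposite signs, so these counts are not independent of each other. The minimum of 24 reads was taken over all groups, and some of these genes reached it through their AOMDSS reads. In AOMDSS replicates 0 to 3, Cxcl2 had 0, 20, 3 and 15 of its 40 reads. Ptgs2 had 2, 1, 3 and 20 of its 31 there, and Ccl8 6, 3, 4 and 33 of its 58. The counts of genes higher in AOMDSS, and the non-overlap of Ptgs2 and Ccl8, are thus partly set by that minimum.

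Which library was highest showed the same unevenness. Of the 47 genes above 0 somewhere, 15 had their highest value in AOMDSS replicate 3, 7 each in AOMDSS replicates 1 and 2, and 2 in AOMDSS replicate 0. Of all tested genes, 8.31%, 10.7%, 8.99% and 8.40% had their highest value in AOMDSS replicates 3, 1, 2 and 0. Curcumin replicates 2 and 3 were highest for none of the 47 and for 4.62% and 2.94% of all tested genes. All tested genes passed the filter, whereas only 12 of the 47 did, so these shares do not compare like sets. AOMDSS replicate 3 also had the most genes above 0 (17127), and Ccl21b and Ccl21c enter the 47 as 1 measurement under both names. Macrophage and dendritic cell markers summed to 56.2, 97.2, 90.1 and 98.6 FPKM in AOMDSS replicates 0 to 3, 33 to 65.8 in curcumin and 37.6 to 97.7 in control. Control replicate 2, with 97.7 FPKM, had about as high a sum as AOMDSS replicates 1 and 3, and was the highest library for 2 of the 47 genes. Cd14 and Lyz2 made up most of that sum in every library, so it says little of the other markers. C1qa, C1qc and Cd68 were 1.99, 1.36 and 1.09 FPKM in control replicate 2 and 6.19, 3.88 and 1.93 in AOMDSS replicate 3. Cd14, Lyz2, Mrc1 and Aif1 were higher in control replicate 2 than in AOMDSS replicate 3. In the tested part of the macrophage and dendritic cell list, 6 of 6 markers had a lower mean with curcumin than in AOMDSS. So did 6 of 6 T and NK cell and 7 of 7 B and plasma cell markers, none past the threshold, beside 6137 of all 12052 tested genes. Markers of 1 list can vary together, so they are not separate observations. The part of these cells in the chemokine levels was not tested.

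**Figure D4:**
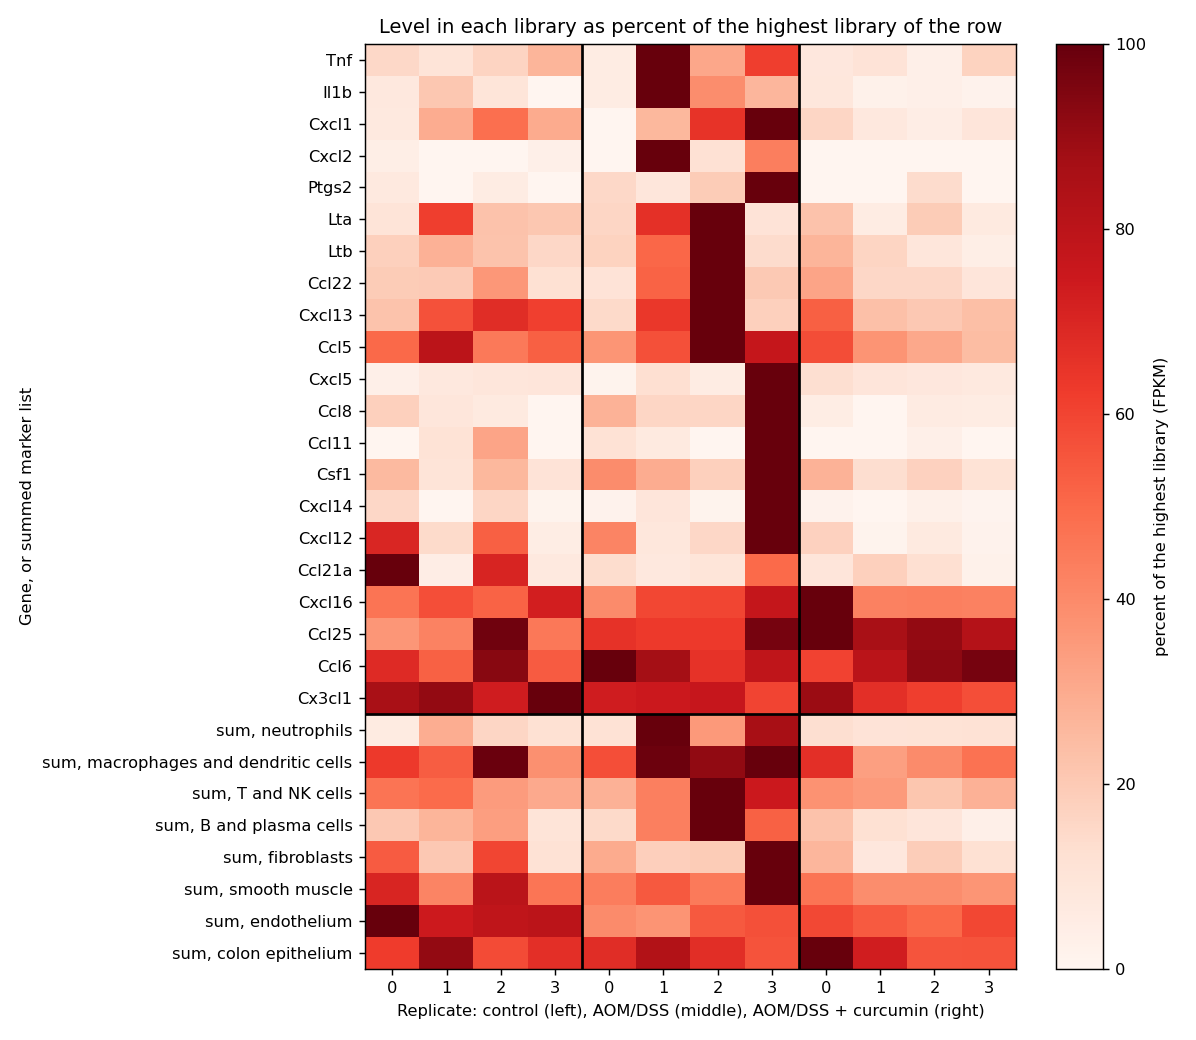
Colour gives each library's FPKM as a percent of the highest library of that row, for 21 chemokines and cytokines and, below the line, 8 summed marker lists. AOMDSS replicates 1, 2 and 3 each hold a different block of dark cells, AOMDSS replicate 0 and curcumin replicates 1 to 3 are mostly pale, and the rows for Ccl6 and Cx3cl1 vary least among the genes shown.

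The receptors, other cytokines and enzymes of the pathway were followed as lists. Of 23 chemokine receptors, 3 passed the filter and 0 were called in any comparison. Cxcr4, the receptor of Cxcl12, had the largest difference, with 4.95 ± 5.67 FPKM in AOMDSS, 1.81 ± 0.793 in control and 0.624 ± 0.256 in curcumin (SD, n = 4), and 13.3 FPKM in AOMDSS replicate 2 alone (log2 fold change 0.72 against control, limma adjusted p = 0.546, and -1.47 for curcumin against AOMDSS, SE 0.46, adjusted p = 0.164). Ackr4, a scavenger of Ccl25, Ccl21 and other chemokines, was next for AOMDSS against control with -0.10 (adjusted p = 0.857). Of 26 receptors and antagonists of the cytokines, 18 passed the filter. None was called in AOMDSS against control, 1 fell with curcumin against AOMDSS and none changed in curcumin against control.

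The one that fell was Tnfrsf1b, the second Tnf receptor, found mainly on white cells. It read 5.08, 3.17, 5.07 and 4.93 FPKM in control, 6.26, 8.87, 6.76 and 8.76 in AOMDSS, and 4.24, 3.56, 3.71 and 4.17 in curcumin. All AOMDSS libraries were above all others, and no curcumin library was above 4.24. The macrophage and dendritic cell marker sum, mostly Cd14 and Lyz2, was 56.2 to 98.6 FPKM in AOMDSS, 33 to 65.8 in curcumin and 37.6 to 97.7 in control. Of the tested markers of that list, 6 of 6 had a lower mean with curcumin than in AOMDSS, beside 6137 of all 12052 tested genes. None of these 6 passed the threshold, Lyz2 (-1.81, limma adjusted p = 0.216) and C1qa (-1.13, adjusted p = 0.196) among them. Their part in the Tnfrsf1b level was not tested. Curcumin against AOMDSS was -0.81 (SE 0.15, limma adjusted p = 0.0240), and AOMDSS against control was 0.64 (SE 0.15, adjusted p = 0.0595), not past the threshold. The call was lost in 6 of 12 fits that left out 1 library (AOMDSS replicate 1 or 3 or any curcumin library, adjusted p of 0.0510 to 0.0810). It was also lost within the GC-rich (-0.79, adjusted p = 0.310) and the AT-rich libraries (-0.82, adjusted p = 0.361), at about the same size. Tnfrsf1a, the receptor of Tnf on most cells, was 33.1 to 46.0 FPKM, and the lymphotoxin receptor Ltbr 54.9 to 88.5, with no call. The prostaglandin E receptor Ptger3 had the largest difference of this list between AOMDSS and control (-0.79, adjusted p = 0.251), with 6.55 ± 1.28 FPKM in control and 3.77 ± 2.70 in AOMDSS.

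Il15 differed most of the other cytokines. It is made by epithelium and supports intraepithelial lymphocytes and NK cells. Its level was 33.1, 33.1, 24.7 and 42.8 FPKM in control, 10.8, 10.6, 11.7 and 11.8 in AOMDSS, and 26.3, 20.3, 18.0 and 17.5 in curcumin. All 4 AOMDSS libraries were below all 8 others. Il15 fell by 1.47 on the log2 scale in AOMDSS against control (SE 0.16, limma adjusted p = 0.00172) and rose by 0.80 in curcumin against AOMDSS (SE 0.16, adjusted p = 0.0317). The difference of curcumin from control, -0.67, was not past the threshold (SE 0.16, adjusted p = 0.121). The fall in AOMDSS was called in all 12 fits that left out 1 library (adjusted p of 0.000836 to 0.0105), whereas the rise with curcumin was lost in 8 of 12, those without any AOMDSS or curcumin library (0.0518 to 0.0935), without the filter (0.0560), with a common sum (0.0511) and with voom (0.0586). Within the GC-rich libraries, where control replicate 0 is the only control, the values were -1.55 and 1.05. These are given as sizes alone and are not calls. Within the AT-rich libraries the values were -1.40 and 0.55, with no call in this fit of fewer libraries (limma adjusted p of 0.102 and 0.520).

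Il15 was 1 of 22 other chemokines and cytokines, of which 10 passed the filter; 1 fell in AOMDSS against control, 1 rose with curcumin against AOMDSS and 0 changed in curcumin against control. By the size of the log2 change in AOMDSS against control Il34, a second ligand of the Csf1 receptor, was next with 16.6 ± 2.1 FPKM in control, 9.21 ± 4.62 in AOMDSS and 10.3 ± 3.29 in curcumin (AOMDSS against control -0.87, SE 0.25, limma adjusted p = 0.131). Tgfb1, a cytokine that restrains inflammation and drives fibrosis, had a lower adjusted p than Il34, with 1.05 ± 0.381 FPKM in control, 2.68 ± 0.788 in AOMDSS and 1.05 ± 0.302 in curcumin. All 4 AOMDSS libraries were above the other 8, and neither difference passed the threshold (0.84, SE 0.19, limma adjusted p = 0.0519 for AOMDSS against control, and -0.83, adjusted p = 0.0619 for curcumin against AOMDSS). Il18, which the epithelium keeps ready for release by Casp1, was abundant, with 217 ± 45.4, 167 ± 51.8 and 179 ± 11.8 FPKM and no call (-0.41, adjusted p = 0.433). Of 11 enzymes that process or degrade these mediators 9 passed the filter and 0 were called in any comparison. Among those 9, the largest differences between AOMDSS and control were those of Hpgd, which breaks down prostaglandins (228 ± 58.2 and 176 ± 81.0 FPKM, -0.45, adjusted p = 0.541), and Alox5, which makes leukotrienes (2.02 ± 1.57 and 2.54 ± 0.512 FPKM, 0.34, adjusted p = 0.637). Alox15, a lipoxygenase that did not pass the filter, was 16.2 FPKM in AOMDSS replicate 3 and at most 1.10 in any other library.

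**Figure D5:**
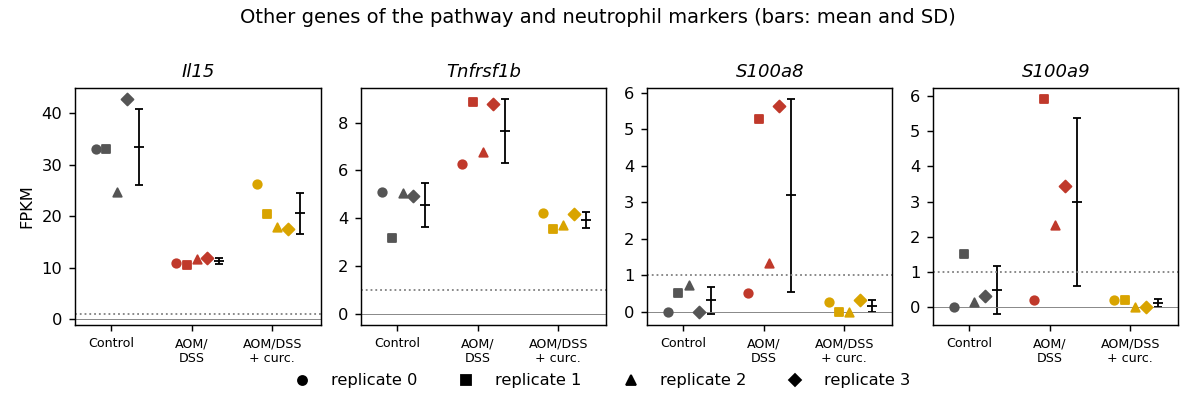
FPKM in every library of Il15, Tnfrsf1b and the neutrophil markers S100a8 and S100a9, with 1 marker shape per replicate number and the group mean with its SD (n = 4), with a dotted line at 1 FPKM. The AOMDSS points of Il15 lie at 10.6 to 11.8, below all others, those of Tnfrsf1b at 6.26 to 8.87, above all others, and those of S100a8 from 0.520 to 5.64.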

How the data were processed

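RNA-seq was used on 12 libraries of colon epithelial cells, 4 per group. The authors deposited FPKM per gene symbol, 1 column per library with no header. Build mm9, featureCounts 1.5.1, TopHat2 2.1.1, DESeq2 1.14.1 and Bowtie2 2.2.6 stand in the submitters' processing notes, beside Picard and R 3.4.0. Strand setting and annotation are not given in the sources used here.

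Genes with at least 1 FPKM in at least 4 libraries (12052) entered limma 3.58.1 (R 4.3.3) on the scale log2(FPKM + 1) (intensity trend, 1 model over 12 libraries, 9 residual degrees of freedom, Benjamini-Hochberg over all genes, threshold 0.05). Fold changes are on that scale and come out too small for low genes. Whole reads were recovered from the steps of the FPKM values (tolerance 0.001, all 19233 genes above 0) and are the smallest whole numbers that fit, so those of genes above 0 in few libraries are minimums. Voom was run on them, and for genes with at least 24 reads as an alternative chosen after seeing the data. Alternatives changed pseudocount, filter, scaling, trend, block, GC group and libraries. The genes and lists were chosen with earlier results of these data known. The labels do not say that libraries come from separate animals, so p-values measure only the spread between these samples, which may be technical. Values in every library are given for the genes that passed the filter or reached 1 FPKM, and for the cytokines named at the start. From each pathway list, called genes and the 2 with the largest change in AOMDSS against control are named. Tnfrsf1a, Ltbr, Il18, Tgfb1, Alox15, Lyve1, Pecam1, Lyz2, Cd14, Aif1, C1qa, Cxcr2, Mpo, Camp, S100a8 and S100a9 were added after their values were seen. So were Cd68, C1qc, Mrc1, Col1a1, Col1a2, Col3a1, Dcn, Lum, Pdgfra, Pdgfrb, Tagln, Acta2, Myh11, Des and Cnn1.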

Additional observations from a re-analysis of the deposited data

Results flagged for a closer look

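In 17 of 84 groups of 4 libraries, over 34 genes, the highest or lowest library lay so far from the others that its gap to the nearest, as a share of the group's range, exceeded Dixon's critical value for 4 samples. Chance alone gives about 1 in 20 groups only where values are normally distributed, which FPKM of low genes are not. Groups of low genes with 3 libraries at 0 meet this criterion with 1 read. The share of groups flagged over all genes was not computed, so 17 of 84 cannot be called an excess. AOMDSS replicate 3 was the high library for 7 of them: Cxcl5 at 12.4 FPKM, Ccl8 at 4.32, Ccl25 at 3.89, Cxcl14 at 3.49, Ccl11 at 1.69, Ccl21a at 1.31 and Ptgs2 at 0.323. That library also had the highest fibroblast and smooth muscle marker sums, though Lum, Pdgfrb, Des and Cnn1 of those lists did not peak there. The part of those cells in these values was not tested.

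In control, replicate 2 was high for Ccl20 (18.5 FPKM) and Ccl25 (3.94). Control replicate 1 was high for Ccl17 (1.15, from 3 reads) and Csf2 (0.191, from at least 1 read). In curcumin, replicate 0 was high for Cxcl16 (8.60 FPKM) and Cxcl13 (2.21). Curcumin replicate 2 was high for Ptgs2 (0.0449 FPKM) and Ccl11 (0.0578), from 3 and 1 reads. Curcumin replicate 1 was low for Ccl8, at 0 FPKM. AOMDSS replicate 1 was the only one of its group above 0 for Il10 (0.0882 FPKM, at least 1 read).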

How the results depend on the processing

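None of the 12 tested genes was called in any comparison under any setting tried, leaving out each library included. Counts over all genes moved more: 153 (AOMDSS against control), 130 (curcumin against AOMDSS) and 17 (curcumin against control) became 53 to 201, 48 to 149 and 4 to 35 when 1 library was left out, 238, 272 and 40 with the GC group as a covariate, 7, 8 and 0 in GC-rich libraries alone and 4, 1 and 0 in AT-rich libraries alone. Fits of only the groups compared gave 54 and 85 in the first 2, and the last count was 11 with a pseudocount of 0.1 and 7 with no filter. With the replicate number as a block they were 82, 86 and 2. Same-numbered libraries correlated at 0.036 to 0.36 between AOMDSS and curcumin, positive in all 4 pairs and above 0.3 in 3, and at -0.33 to 0.46 in the comparisons with control. Not every pair was above 0.1 in any comparison and no label ties the numbers, so they were not taken to pair samples. The block ended the calls of Il15 and Tnfrsf1b in curcumin against AOMDSS (adjusted p = 0.0607 and 0.0564). The cause of these shifts was not tested, beyond the smaller number of libraries in some fits.

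The following directions turned, none of them of a difference past the threshold. AOMDSS against control turned for Cxcl10 with a pseudocount of 0.1 (-0.15), with voom (-0.12, and -0.080 for genes with 24 reads or more) and for Cxcl16 with quantiles (-0.013). Between GC-rich libraries, where control replicate 0 is the only control, it turned for Ccl20 (0.43), Ccl5 (-0.10), Cxcl10 (-0.60) and Cxcl13 (0.34). Between AT-rich ones it turned for Ccl27a (-0.13). Curcumin against AOMDSS turned between GC-rich libraries for Cxcl16 (0.37), Ccl5 (0.0092), Ccl27a (-0.071), Cxcl5 (0.42), Cxcl13 (0.045) and Cx3cl1 (0.053), and between AT-rich ones for Ccl6 (0.39) and Cxcl10 (-0.38). Curcumin against control turned between GC-rich libraries, again with control replicate 0 alone, for Ccl20 (0.41), Cxcl16 (0.42), Ltb (0.16) and Cxcl13 (0.39). Between AT-rich ones it turned for Cxcl5 (-0.092).

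Leaving out 1 library turned the following. AOMDSS against control ran from -0.33 to 0.44 for Ccl20, -0.020 to 0.38 for Ccl5, -0.13 to 0.30 for Cxcl10, -0.49 to 0.071 for Cxcl13, -0.094 to 0.17 for Cxcl16 and -0.14 to 1.03 for Cxcl5. Curcumin against AOMDSS ran from -0.43 to 0.12 for Ccl20, -0.016 to 0.23 for Ccl27a, -0.12 to 0.12 for Ccl6, -0.20 to 0.013 for Cx3cl1, -0.097 to 0.34 for Cxcl10, -0.55 to 0.0092 for Cxcl13, -0.34 to 0.034 for Cxcl16 and -0.85 to 0.32 for Cxcl5. Curcumin against control ran from -0.54 to 0.29 for Ccl20, -0.0042 to 0.35 for Cxcl10 and -0.32 to 0.043 for Cxcl16. Read steps predicted from exon length differed from those used by factors of 0.101 (Ccl27b) to 4.36 (Ccl25), on lengths of a later build, and reads were not recounted with them. Depth limits the 41 genes that did not pass, 21 of the 53 with fewer than 24 reads in all.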
